A study of Mus musculus with 8 samples.

Results

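This report describes embryonic hearts at E8.5 that lost *Dgcr8* in the *Mesp1* lineage. The 2 conditional knockout (cKO) libraries of that stage were compared with the 2 control libraries labelled wild type (WT), 4 of the 8 RNA-seq libraries in the series. The other 4 libraries hold the same 2 genotypes at E9.5 and serve to filter low genes, to estimate the spread between libraries and to set the E8.5 values beside the later stage. All embryos were on a C57BL/6 background. The study's text gives the cKO hearts as *Mesp1*Cre/+ *Dgcr8* loxP/loxP with 1 copy of the *Rosa26* mT/mG reporter, and the labels write the same group as Dgcr8-/-. The controls had the same floxed *Dgcr8* alleles and the same reporter but no Cre, so the loss of *Dgcr8* and the *Mesp1*Cre allele, which replaces 1 *Mesp1* copy, cannot be told apart. Cre acts only in descendants of *Mesp1*-expressing mesoderm, so any other cells in a dissected heart tube kept *Dgcr8*. How many hearts went into a library was not stated, and the study's methods call the 2 libraries of a group independent biological replicates.

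DGCR8 is the RNA-binding partner of the nuclease DROSHA. Together they form the microprocessor, which recognises hairpins in long primary transcripts and cuts them out as precursors of microRNAs (miRNAs). Without it, primary transcripts are no longer cleaved at the hairpins and most miRNAs cannot be made. At E8.5 the mouse heart is a tube that has begun to beat, with a myocardial wall, an endocardial lining and progenitors of the second heart field still joining at its ends.

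Values are FPKM (fragments scaled by transcript length and by the mapped fragments of the library), and pairs of values are given in the order replicate 1, replicate 2. FPKM is relative to the whole library, and the median log2 change from WT to cKO over all tested genes was -0.28. Loci under 300 bp took 15.7% and 16.2% of the summed FPKM in WT and 38.6% and 50.5% in cKO hearts, and the absolute depth is unknown. Most of this difference was 1 annotated miRNA locus of 109 bp, *Mir703* (chromosome 5, 98475556 to 98475664), which was listed at 0 in both WT libraries and had 344694 and 545968 FPKM in the cKO libraries. It did not pass the threshold (limma adjusted p 0.590) but did when only the 4 E8.5 libraries were modelled (0.000109), and its adjusted p was at least 0.203 under the other alternatives. At E9.5 it was listed at 134417 and 0 FPKM in WT and at 324251 and 0 FPKM in cKO hearts, so it also differed between replicates of 1 genotype. Gene lists, and counts by fold change, are therefore given relative to this median gene. A list's lower value can reflect fewer cells of a type or less RNA per cell, which bulk libraries cannot tell apart.

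The 2 cKO libraries differed from each other more than from the controls, so both are shown throughout. Heart muscle genes were abundant in all 4 libraries. The 6 cardiomyocyte markers summed to 23995 and 39999.6 FPKM in WT and to 52790.5 and 37400.3 FPKM in cKO hearts, and 0 of 12 somite markers passed the expression filter. Markers of tissues outside the heart were unevenly present. The 15 foregut and definitive endoderm markers, 9 of them tested, summed to 2624 and 1892 FPKM in WT and to 2998 and 1546 FPKM in cKO hearts. The 20 neural and neural crest markers, 5 of them tested, summed to 207 and 124 FPKM in WT and to 104 and 53.4 FPKM in cKO hearts. The 25 yolk sac endoderm markers in the table summed to 2967 and 6208 FPKM in WT and to 13673.5 and 4355 FPKM in cKO hearts. The 12 decidual stroma markers summed to 1315 and 2411 FPKM in WT and reached 999 and 6899 FPKM in cKO hearts. The 14 trophoblast markers summed to 193 and 375 FPKM in WT and reached 259.9 and 1599 FPKM in cKO hearts. Decidua and trophoblast form the maternal and embryonic sides of the early placenta. The 14 markers of uterine natural killer cells summed to 522 FPKM in WT replicate 1 and to 2.24 FPKM in WT replicate 2, against 0.99 and 2.35 FPKM in cKO hearts. The 15 myeloid markers in the table summed to 402 and 102 FPKM in WT and reached 9.38 and 297 FPKM in cKO hearts. Of these lists, yolk sac endoderm was highest in cKO replicate 1, decidua and trophoblast were highest in cKO replicate 2, and natural killer and myeloid markers were highest in WT replicate 1. Y-linked transcripts were present in WT replicate 2 (*Eif2s3y* 10.1 FPKM) and at most at 0.044 FPKM for this gene in the other 3 libraries.

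**Figure D1:**
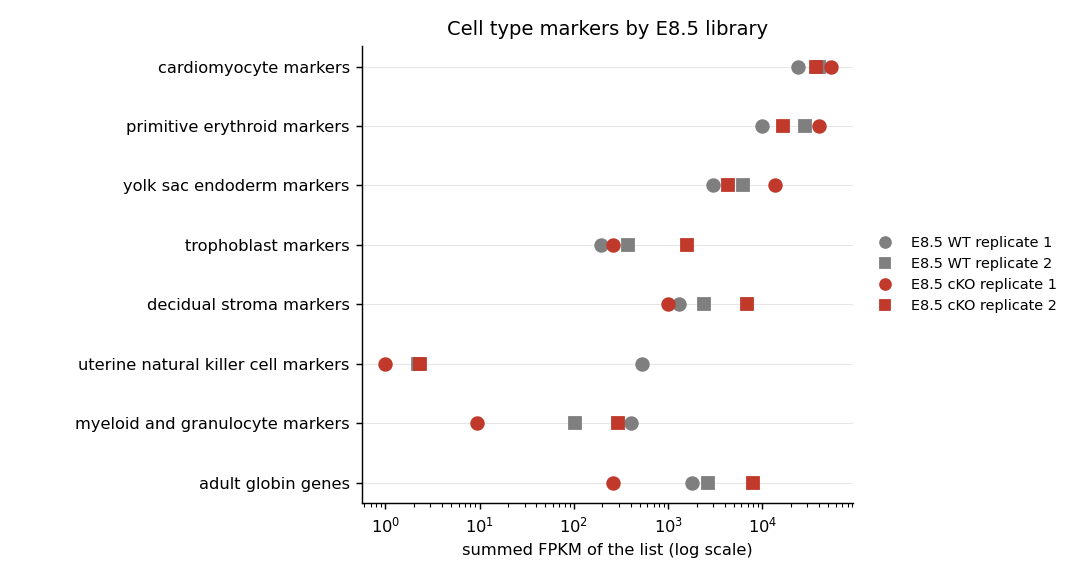
Summed FPKM (log scale, horizontal axis) of 8 marker lists in each E8.5 library, with grey for WT, red for cKO, circles for replicate 1 and squares for replicate 2. Cardiomyocyte markers lie within 23995 to 52790.5 FPKM in all 4 libraries, whereas natural killer cell markers reach 522 FPKM in WT replicate 1 and are at most 2.35 FPKM elsewhere.

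Expression of the deleted gene was examined first. *Dgcr8* (chromosome 16, 18253965 to 18289168, GRCm38) had 7.10 and 8.60 FPKM in WT hearts against 1.64 and 4.67 FPKM in cKO hearts. Both cKO libraries lay below both WT libraries, and replicate 2 kept more of the transcript than replicate 1. The log2 difference was -1.19 (SE 0.36, limma adjusted p 0.590), and it moved between -1.74 and -0.64 when single libraries were left out. The E8.5 reduction therefore did not pass the threshold. Its locus also spans the miRNA hairpin *Mir1306*. Which part of the transcript the fragments came from was not given, so transcript left over from a recombined allele cannot be told apart from transcript of intact cells.

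Only 1 gene was called between cKO and WT hearts at E8.5. With limma, 1 of 10018 tested genes (0.00998%) was higher at an adjusted p under 0.05 and 1.5-fold, and 0 (0.0%) were lower. Taking unadjusted p under 0.05 with the same fold limit, 24 genes (0.24%) were higher and 691 (6.9%) lower on the deposited scale, but median-ratio scaling turned this into 133 higher and 85 lower and quantile normalization into 93 and 117. Relative to the median gene, 523 genes (5.22%) were at least 1.5-fold higher and 341 (3.4%) at least 1.5-fold lower. For 280 of the higher genes (2.79% of all tested) both cKO libraries lay above both WT libraries once each library was centred on its own median, and for 204 of the lower genes (2.04%) both lay below. This separation is what "without overlap" means below, and counts of genes higher or lower without overlap also need the 1.5-fold limit. With 2 libraries a side the smallest two-sided p of an exact permutation test is 0.333, so these counts are descriptive. Leaving out 1 library moved the calls: without cKO replicate 1 limma called 20 genes higher and 1 lower, without cKO replicate 2 it called 4 and 46, without WT replicate 2 it called 1 and 24, and without WT replicate 1 it called 0 and 0.

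Among loci of at least 300 bp, the gene that rose and the next 2 in order of size were long non-coding transcripts that carry miRNA hairpins. *Mir17hg* (chromosome 14, 115044390 to 115046728) is the primary transcript of the miR-17-92 cluster, which is known for driving growth of the embryonic heart and lung. It had 1.08 and 1.31 FPKM in WT hearts against 18.2 and 21.7 FPKM in cKO hearts, a log2 change of 3.25 with an SE of 0.26 (limma adjusted p 0.0146). *C430049B03Rik* (chromosome X, 53053112 to 53057190) spans the hairpins of miR-322 and miR-503. It had 5.38 and 4.47 FPKM in WT hearts against 25.6 and 35.0 FPKM in cKO hearts, a log2 change of 2.39 with an SE of 0.26 (limma adjusted p 0.0804). *Mir22hg* (chromosome 11, 75461539 to 75466690), the host of miR-22, a miRNA abundant in heart muscle, had 1.79 and 1.73 FPKM in WT hearts against 8.83 and 9.55 FPKM in cKO hearts. The log2 change was 1.88 with an SE of 0.23 (limma adjusted p 0.0991). In all 3 genes the replicates of each genotype lay close together and the genotypes did not overlap, also in the cKO replicates that differed so widely elsewhere.

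The call for *Mir17hg* depended on the other libraries that set the spread. Its limma adjusted p was 0.205 when only the 4 E8.5 libraries were modelled, where *Mir703* was the 1 gene called higher, 0.195 without WT replicate 1, 0.0681 with a pseudocount of 0.1 and 0.0590 without a filter on low values, and its log2 change stayed between 3.13 and 3.37 without any single library. *C430049B03Rik* passed with quantile normalization (adjusted p 0.0439), with a mean of at least 5 FPKM (0.0240) and without either cKO library (0.0180 and 0.0238), and *Mir22hg* passed with quantile normalization (0.0439). Over all alternatives the adjusted p of these 2 genes ranged up to 0.723 and 0.982.

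Mature miRNAs of these 3 clusters are printed because their primary transcripts are the 3 leading higher genes among loci of at least 300 bp. Sequences are from RefSeq (GRCm38.p6), and capitals mark the seed, bases 2 to 8. In the miR-17-92 cluster (chromosome 14, plus strand), miR-17-5p and miR-20a-5p share 1 seed and miR-19a-3p and miR-19b-3p share another.
mmu-miR-17-5p: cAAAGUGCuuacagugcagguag
mmu-miR-20a-5p: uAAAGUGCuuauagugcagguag
mmu-miR-19a-3p: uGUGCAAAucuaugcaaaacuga
mmu-miR-19b-3p: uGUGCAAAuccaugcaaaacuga
mmu-miR-18a-5p: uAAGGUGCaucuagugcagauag
mmu-miR-92a-3p: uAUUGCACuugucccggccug
mmu-miR-322-5p: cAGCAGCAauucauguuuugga
mmu-miR-503-5p: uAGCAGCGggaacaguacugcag
mmu-miR-22-3p: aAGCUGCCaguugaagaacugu

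Where the hairpins lie relative to the listed locus decides what the FPKM values can show. The *Mir17hg* entry holds the whole hairpin of miR-92a-1, whose mature 3p strand lies at 115044476 to 115044496, and the entry's first bases overlap the end of the miR-19b-1 hairpin. The hairpins of miR-17, miR-18a, miR-19a and miR-20a end 636, 444, 309 and 127 bases before the listed start, so the value describes the transcript downstream of most of its hairpins. *C430049B03Rik* holds miR-351, miR-503 and miR-322, whose mature strands lie between 53053276 and 53054327 on the minus strand of chromosome X. The hairpins of miR-542 and the miR-450 group lie 3625 to 5034 bases outside its lower end. *Mir22hg* holds the miR-22 hairpin, with the 3p strand at 75463772 to 75463793 on the plus strand of chromosome 11.

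At E9.5, measured in separate libraries with their own controls, the same 3 transcripts had differences of similar size. *Mir17hg* had 0.24 and 0.77 FPKM in WT hearts against 11.3 and 10.9 FPKM in cKO hearts (log2 change 3.03, limma adjusted p 0.00828). *C430049B03Rik* had 5.51 and 6.24 FPKM, and 35.2 and 39.5 FPKM (2.48, adjusted p 0.0136). *Mir22hg* had 0.25 and 0.48 FPKM, and 4.80 and 3.64 FPKM (1.93, adjusted p 0.0234). The E8.5 minus E9.5 difference of the log2 change was 0.22, -0.09 and -0.05 for the 3 genes (limma interaction adjusted p 0.932, 0.974 and 0.987).

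**Figure D2:**
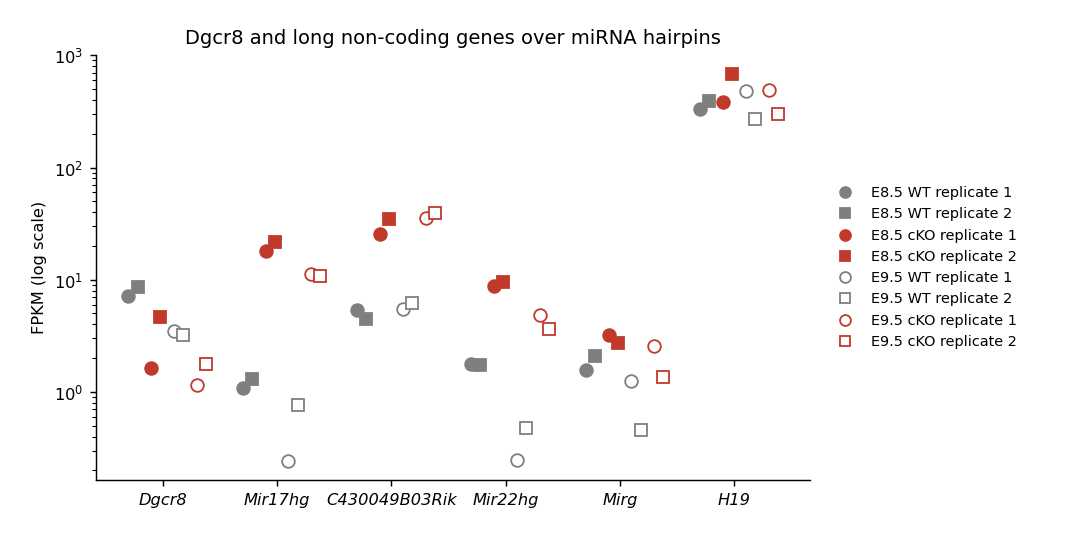
Deposited FPKM (log scale, vertical axis) of *Dgcr8* and of 5 long non-coding miRNA hosts, with 1 point per library. Relative to the median gene, the 5 hosts were at least 1.5-fold higher in E8.5 cKO hearts. Filled symbols show E8.5 and open symbols E9.5. *Mir17hg* lies at 1.08 to 1.31 FPKM in E8.5 WT and at 18.2 to 21.7 FPKM in E8.5 cKO libraries, while *H19* lies at 334 to 683 FPKM in the E8.5 libraries.

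The pattern was examined across all hosts, chosen by position rather than by name after the leading genes had been seen. Of 12 tested lncRNA genes whose locus overlapped an annotated hairpin on the same strand, where the strand was known, 5 (41.7%) were at least 1.5-fold higher relative to the median gene without overlap, against 2.79% of all tested genes, and 0 were lower. The other 2 were *Mirg*, host of a large imprinted miRNA cluster, with 1.56 and 2.10 FPKM in WT hearts against 3.24 and 2.75 FPKM in cKO hearts, and *H19*, host of miR-675, with 334 and 395 FPKM and 384 and 683 FPKM. In both the non-overlap holds on values centred on each library's median, and for *H19* the deposited FPKM of cKO replicate 1 lies between the WT values. *Meg3*, the host of miR-770, had 18.8 and 25.6 FPKM in WT hearts against 23.9 and 19.6 FPKM in cKO hearts, and *Rian* had 4.59 and 7.15 FPKM and 5.13 and 3.68 FPKM, with overlapping genotypes in both. The median change of the 12 genes was 0.12 on the log2 scale, since 6 lay above and 6 below the median gene.

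Long non-coding genes without a hairpin were counted in the same way, with no test of the difference between the sets. Of 141 such genes, 7 (4.96%) were at least 1.5-fold higher and 28 (19.9%) at least 1.5-fold lower without overlap, with a median of -0.29 relative to the median gene. All tested genes gave 2.79% and 2.04% for the same counts. Among protein-coding genes over a hairpin, 18 of 331 (5.44%) were higher and 2 (0.604%) lower, against 216 (2.41%) and 160 (1.78%) of 8971 protein-coding genes without one. *Dgcr8* itself was among the lower ones. The protein-coding host with the largest difference was *2610318N02Rik*, which spans miR-130b and miR-301b and was named after its values were seen. It had 49.0 and 35.4 FPKM in WT hearts against 112 and 48.8 FPKM in cKO hearts, so its cKO replicates were unequal. At E9.5 it had 18.1 and 10.4 FPKM, and 52.4 and 49.9 FPKM.

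In a list of 17 miRNA host transcripts compiled by name, 12 were in the table and 8 were tested, and 4 of these were at least 1.5-fold higher without overlap (*Mir17hg*, *Mir22hg*, *Mirg* and *H19*). The list's median was 0.52 relative to the median gene. In a list of 44 protein-coding hosts, 34 were tested and 3 were higher, with a median of 0.12. Of all tested genes 2.79% were higher by the same measure. *Mest*, an imprinted enzyme gene that hosts miR-335, had 1092 and 1646 FPKM in WT hearts against 1062 and 1721 FPKM in cKO hearts. *Myh6*, the atrial myosin gene that hosts miR-208a, had 246 and 504 FPKM, and 404 and 343 FPKM. Neither host separated the genotypes.

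Genes of the miRNA machinery and textbook miRNA targets had list medians near that of all tested genes. Of 17 tested processing and Argonaute genes, 2 were at least 1.5-fold higher without overlap (*Tnrc6a* and *Tnrc6b*, scaffolds of the silencing complex) and 2 lower (*Dgcr8* and *Lin28a*), against 2.79% and 2.04% of all tested genes, and the list's median was 0.10. *Lin28a*, which blocks let-7 maturation, had 48.7 and 71.0 FPKM in WT hearts against 24.5 and 34.0 FPKM in cKO hearts. Of 35 tested genes that textbooks give as miRNA targets, 0 were at least 1.5-fold higher without overlap and 2 were lower (*Lin28a* and *Lefty2*), and the median of the list was 0.02. The most abundant of them, *Arid3b*, had 83.1 and 88.7 FPKM in WT hearts against 67.3 and 50.4 FPKM in cKO hearts.

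Besides the hosts, 7 other genes completed the 10 with the largest higher value relative to the median gene, among 25 that met every criterion (an unadjusted limma p under 0.05, 1.5-fold relative to the median gene rather than on the deposited scale, no overlap, a locus of at least 300 bp and the same direction under both other scalings). None of the 7 passed an adjusted p of 0.05 (each 0.590 in limma). *Hsd17b2*, which oxidises oestradiol and testosterone, had 2.51 and 6.76 FPKM in WT hearts against 9.80 and 12.0 FPKM in cKO hearts. *Eps8l2*, an actin regulator, had 2.11 and 3.15 FPKM, and 5.74 and 7.81 FPKM. *Nrk*, a kinase gene on chromosome X, had 1.34 and 1.82 FPKM, and 4.14 and 3.53 FPKM. The log2 changes of these 3 were 1.18 (SE 0.38), 1.10 (SE 0.27) and 0.91 (SE 0.31). That of *Hsd17b2* was 0.61 without WT replicate 1 and 1.76 without WT replicate 2.

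*Ftl1*, the light chain of the iron store ferritin, was the most abundant of them. It had 4706 and 5176 FPKM in WT hearts against 8997 and 9530.4 FPKM in cKO hearts, with a log2 change of 0.91 (SE 0.23), and its replicates were close in both genotypes. *Ftl1* has processed copies in the genome, and *Hist1h2ao* and *Hba-a2* have near-identical neighbours, so their values are uncertain. *Hist1h2ao*, a histone gene, had 1450 and 2035 FPKM, and 3156 and 3063 FPKM. *Hba-a2*, an alpha globin gene, had 32.8 and 66.5 FPKM, and 94.8 and 88.8 FPKM, and its locus overlaps that listed for *Hba-a1*. *Wdfy1*, an endosomal adaptor gene, had 8.38 and 2.11 FPKM in WT hearts against 10.8 and 13.0 FPKM in cKO hearts, so that WT replicate 1 lay close to the cKO values. Without WT replicate 2 the log2 change of *Wdfy1* was 0.46 and without WT replicate 1 it was 2.05, and for *Hba-a2* these were 1.46 and 0.46.

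Among the genes with lower values were some whose WT replicates were alike. *Klk1*, which encodes tissue kallikrein, a protease that releases kinins, was one, with 37.5 and 51.3 FPKM in WT hearts against 10.2 and 9.81 FPKM in cKO hearts. The log2 change was -2.03 with an SE of 0.24 (limma adjusted p 0.0975), between -2.25 and -1.81 without any single library. *Tnnt1*, the slow skeletal troponin T gene, had 38.1 and 46.5 FPKM in WT hearts against 14.0 and 12.0 FPKM in cKO hearts (log2 change -1.63, SE 0.30, limma adjusted p 0.590). At E9.5 *Tnnt1* had 22.0 and 36.2 FPKM in WT hearts against 9.99 and 9.20 FPKM in cKO hearts. *Lefty2*, a Nodal antagonist of the left side of the embryo, had 30.7 and 21.4 FPKM in WT hearts against 4.69 and 12.5 FPKM in cKO hearts (log2 change -1.60, SE 0.40, limma adjusted p 0.590), and it passed without cKO replicate 2 (-2.23, adjusted p 0.0400) but was at -0.98 without cKO replicate 1 (adjusted p 0.119). *Klk1* also passed without cKO replicate 2 (0.0473).

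In 5 of the other leading genes the size of the difference rested on WT replicate 1. *Tmsb15a*, a beta thymosin gene, had 45.8 and 1.90 FPKM in WT and was listed at 0 in both cKO libraries. *Apela*, a peptide that acts through the apelin receptor, had 76.2 and 3.07 FPKM, and 0.47 and 2.10 FPKM. In both genes, and in the 3 that follow, WT replicate 1 was well above the other 3 libraries. The lncRNA gene *AW112010* had 20.1 and 0.65 FPKM in WT hearts against 0 and 0.25 FPKM in cKO hearts. *Wfdc2*, a secreted protease inhibitor of epithelia, had 79.9 and 8.02 FPKM, and 3.72 and 6.20 FPKM. *Frzb*, a secreted Wnt antagonist, had 27.5 and 4.91 FPKM, and 2.16 and 2.58 FPKM.

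Without WT replicate 1 the log2 changes of *Tmsb15a*, *Apela*, *AW112010*, *Wfdc2* and *Frzb* shrank to -1.53, -0.93, -0.56, -0.63 and -0.81 from -3.54, -3.05, -2.40, -2.21 and -1.95. Without WT replicate 2 those of *Tmsb15a*, *Apela* and *AW112010* were -5.55, -5.18 and -4.24 and passed the threshold (limma adjusted p 0.00143, 0.00388 and 0.000898). WT replicate 1 also held the natural killer cell markers, *Gzmd* at 116 FPKM and *Gzmf* at 103 FPKM, against at most 0.48 FPKM for either gene in the other 3 libraries. Of 9 tested foregut and definitive endoderm markers 7 were at least 1.5-fold higher in WT replicate 1 and 0 in WT replicate 2. Of all tested genes 5.73% and 7.77% were. The part of maternal or foregut cells in these differences was not tested. *Ifitm1*, an interferon-inducible membrane protein gene, had 205 and 83.5 FPKM in WT hearts against 16.6 and 37.4 FPKM in cKO hearts. Its log2 change of -2.34 stayed between -2.99 and -1.70 without any single library. *Atcayos*, a transcript that overlaps *Atcay* and *Nmrk2*, had 24.8 and 16.6 FPKM in WT hearts against 11.6 and 2.05 FPKM in cKO hearts. It differed most between the cKO replicates of the lower genes, with a log2 change of -1.78 that was -2.80 without cKO replicate 1 (limma adjusted p 0.0468) and -0.75 without cKO replicate 2, and the sources used here do not say whether counting used strand.

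**Figure D3:**
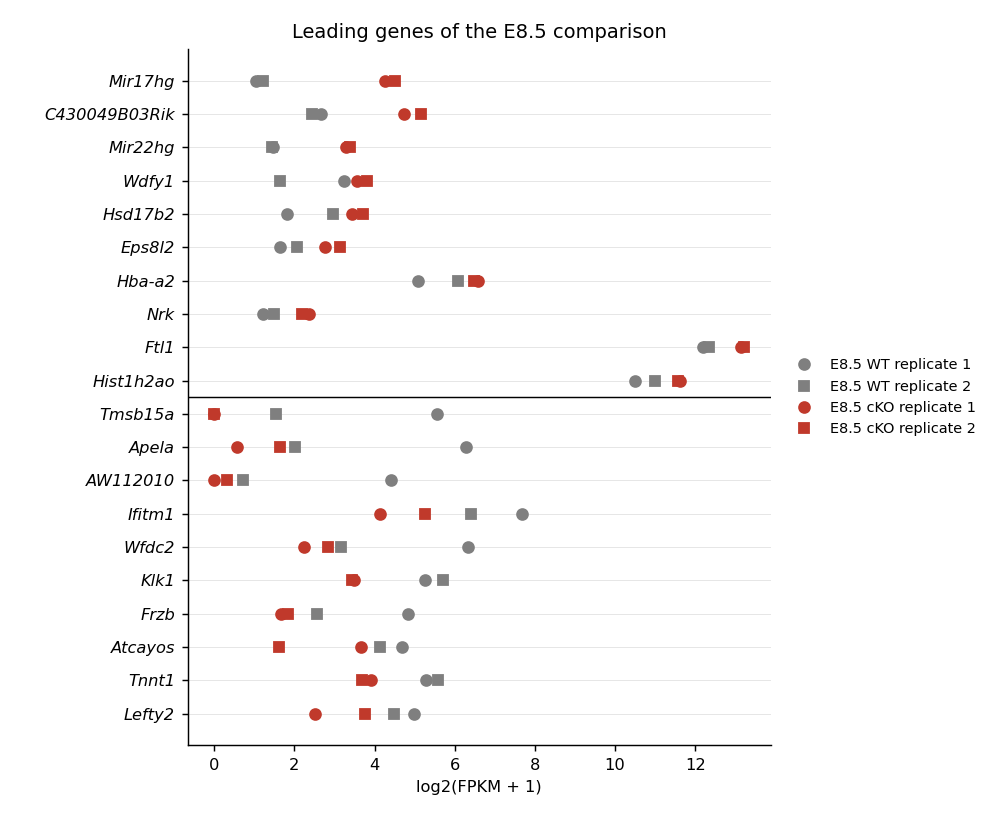
log2(FPKM + 1) of the 10 leading higher genes (above the line) and the 10 leading lower genes (below the line) in each E8.5 library, with grey for WT, red for cKO, circles for replicate 1 and squares for replicate 2. In *Mir17hg*, *C430049B03Rik*, *Mir22hg*, *Ftl1*, *Klk1* and *Tnnt1* the replicates of a genotype lie together, and in *Tmsb15a*, *Apela*, *AW112010*, *Wfdc2* and *Frzb* WT replicate 1 lies far to the right of the other 3 libraries.

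Cardiac regulators were compared because they define the tissue. Of the 7 genes that the study assayed by q-PCR in E8.5 hearts, *Mesp1* and *Cxcr4* did not pass the expression filter, and of the other 5 none was called. *Gata4* had 8.71 and 13.3 FPKM in WT hearts against 11.6 and 14.0 FPKM in cKO hearts. *Nkx2-5* had 19.7 and 85.6 FPKM, and 21.6 and 87.1 FPKM, so it differed more between replicates than between genotypes. *Tnni3*, cardiac troponin I, had 181 and 349 FPKM, and 549 and 131 FPKM. *Pdgfra*, a receptor of cardiac progenitors, had 8.69 and 6.65 FPKM, and 5.18 and 11.2 FPKM. The log2 changes of these 4 genes were 0.22 (SE 0.49), 0.08 (SE 0.78), 0.09 (SE 0.62) and 0.01 (SE 0.35), with limma adjusted p from 0.861 to 0.990.

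The 21 tested cardiac transcription factors had a median of 0.15 relative to the median gene. It was -0.07 without WT replicate 1, -0.04 without cKO replicate 2 and -0.04 without a filter on low values. Without overlap 1 was at least 1.5-fold higher (*Hand1*) and 1 lower (*Tbx3*), against 2.79% and 2.04% of all tested genes. *Hand1*, a left ventricular factor that trophoblast also expresses, had 67.4 and 90.4 FPKM in WT hearts against 79.0 and 160 FPKM in cKO hearts, which overlap before centring. *Smyd1*, a muscle methyltransferase gene, had 180 and 185 FPKM, and 237 and 91.5 FPKM. Of the 14 tested genes of the second heart field and early mesoderm, 0 were at least 1.5-fold higher and 3 lower without overlap. The 3 included *Fgf8* and *Nkx2-6*, and the list's median was -0.30. *Fgf8*, a growth factor of these progenitors, had 28.4 and 30.5 FPKM in WT hearts against 12.8 and 14.6 FPKM in cKO hearts. *Nkx2-6*, which is shared with the pharyngeal endoderm, had 41.2 and 4.68 FPKM, and 1.32 and 1.25 FPKM, again with WT replicate 1 far above the rest. *Wnt2*, the most abundant of the list, had 69.1 and 98.0 FPKM, and 135 and 78.3 FPKM. The share of lower genes in this list, 3 of 14, compares with 2.04% of all tested genes, and the list's median was -0.73 in cKO replicate 1 and -0.07 in cKO replicate 2. Without WT replicate 1 it was 0.01.

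Sarcomere genes lay above the median gene in 25 of 34 cases, with a median of 0.29. Without overlap, 6 were at least 1.5-fold higher and 1, *Tnnt1*, was lower, against 2.79% and 2.04% of all tested genes. *Myl7*, the atrial myosin light chain, had 12315 and 21768 FPKM in WT hearts against 28668 and 20217 FPKM in cKO hearts. *Actc1*, cardiac actin, had 8109.9 and 12372 FPKM, and 17491 and 11490.0 FPKM. By deposited FPKM the values of both genes overlap between the genotypes, and the list's median was -0.34 and 0.34 in the WT replicates and 0.49 and -0.05 in the cKO replicates. Without cKO replicate 1 the median of the list was -0.01. Of the 16 tested calcium handling and pacemaker genes 0 were higher and 1 was lower without overlap (*Gja5*, an atrial gap junction gene), and of the 12 chamber genes likewise 0 and *Gja5*. *Nppa*, atrial natriuretic peptide, had 25.1 and 160 FPKM in WT hearts against 82.6 and 30.2 FPKM in cKO hearts.

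Vascular genes were described because the study's question at the later stage concerned them. Of 31 tested endothelial genes 0 were at least 1.5-fold higher and 3 lower without overlap (*Etv2*, *Aplnr* and *Hhex*), against 2.79% and 2.04% of all tested genes, with a median of -0.11. *Ramp2*, part of the adrenomedullin receptor, had 110 and 130 FPKM in WT hearts against 157 and 78.8 FPKM in cKO hearts. *Egfl7*, a secreted endothelial factor that also hosts miR-126, had 86.0 and 82.0 FPKM, and 129 and 52.8 FPKM. The list's median was 0.21 in cKO replicate 1 and -0.40 in cKO replicate 2, with both WT replicates between them at -0.06 and 0.06, and without cKO replicate 2 the median of the list was 0.16. Of the 13 tested vascular genes that the study named, which were partly chosen on libraries of this series, 0 passed in either direction, and their median was 0.26. Of 16 secreted angiogenic factors 0 passed in either direction, and their median of -0.09 was 0.13 with a mean of at least 5 FPKM and 0.02 without cKO replicate 2. Of 8 epicardial genes 0 passed, and their median was -0.47 in cKO replicate 1 and 0.38 in cKO replicate 2. Of 27 Notch, BMP and cushion genes 1 was higher (*Bmp7*) and 2 were lower (*Has2* and *Hes1*), against the same shares of all tested genes, with a median of -0.02. *Has2*, the hyaluronan synthase of the cardiac jelly, had 40.3 and 25.1 FPKM in WT hearts against 13.9 and 18.4 FPKM in cKO hearts.

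Most genes of translation and respiration lay above the median gene on the deposited scale. Of 74 cytosolic ribosomal protein genes 71 lay above the median gene, with a median of 0.42, and 9 were at least 1.5-fold higher and 0 lower without overlap, against 2.79% and 2.04% of all tested genes. *Rps27* had 6254 and 6873 FPKM in WT hearts against 7655 and 8117 FPKM in cKO hearts. The list's median was -0.04 and 0.04 in WT and 0.28 and 0.59 in cKO libraries, so both cKO libraries lay above both WT libraries, but with quantile normalization the median relative to the median gene was -0.11. Most ribosomal protein genes have processed copies, so fragments may be assigned to the wrong copy. Of 60 respiratory chain genes 49 lay above the median gene, with a median of 0.27. Without overlap 3 were at least 1.5-fold higher, against the same 2.79%. The list's median was -0.11 and 0.11 in WT and 0.55 and 0.06 in cKO libraries, so cKO replicate 2 lay between the WT libraries, and without cKO replicate 1 the median change was 0.090. *Atp5b*, the catalytic subunit of ATP synthase, had 1923 and 2006 FPKM in WT hearts against 3048 and 2223 FPKM in cKO hearts.

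Most DNA replication genes lay below the median gene. Of 43 such genes 34 lay below the median gene, with a median of -0.22, and 0 were at least 1.5-fold apart without overlap in either direction. The list's median was 0.13 and -0.13 in WT and -0.02 and -0.38 in cKO libraries, so cKO replicate 1 lay between the WT libraries, and without cKO replicate 2 the median change was -0.071. Without WT replicate 1 it was -0.043. The most abundant, *Rrm2*, a subunit of ribonucleotide reductase, had 374 and 232 FPKM in WT hearts against 142 and 525 FPKM in cKO hearts. *Pcna*, the sliding clamp, had 279 and 238 FPKM, and 203 and 228 FPKM. Cyclins and mitotic genes had a median of 0.03, with 0 of 35 in either direction, and splicing genes one of -0.07, with 1 of 58 higher. Of 22 imprinted genes 4 were at least 1.5-fold higher without overlap (*Phlda2*, *H19*, *Igf2* and *Mirg*) and 0 lower. Of all tested genes 2.79% and 2.04% were, and the list's median was 0.12. *H19* and *Mirg* are also among the miRNA hosts counted above. *Phlda2*, which restrains growth of the placenta, had 273 and 434 FPKM in WT hearts against 634 and 570 FPKM in cKO hearts. Of 25 stress response genes, 17 p53 target genes and 18 immediate early genes 0 passed in either direction, with medians of 0.09, 0.05 and 0.29. The immediate early median was -0.05 without cKO replicate 2. Without a filter on low values the stress response and p53 medians were -0.10 and -0.14. Of 25 basement membrane genes 2 were higher (*Col4a1* and *Nid1*), with a median of 0.17.

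**Figure D4:**
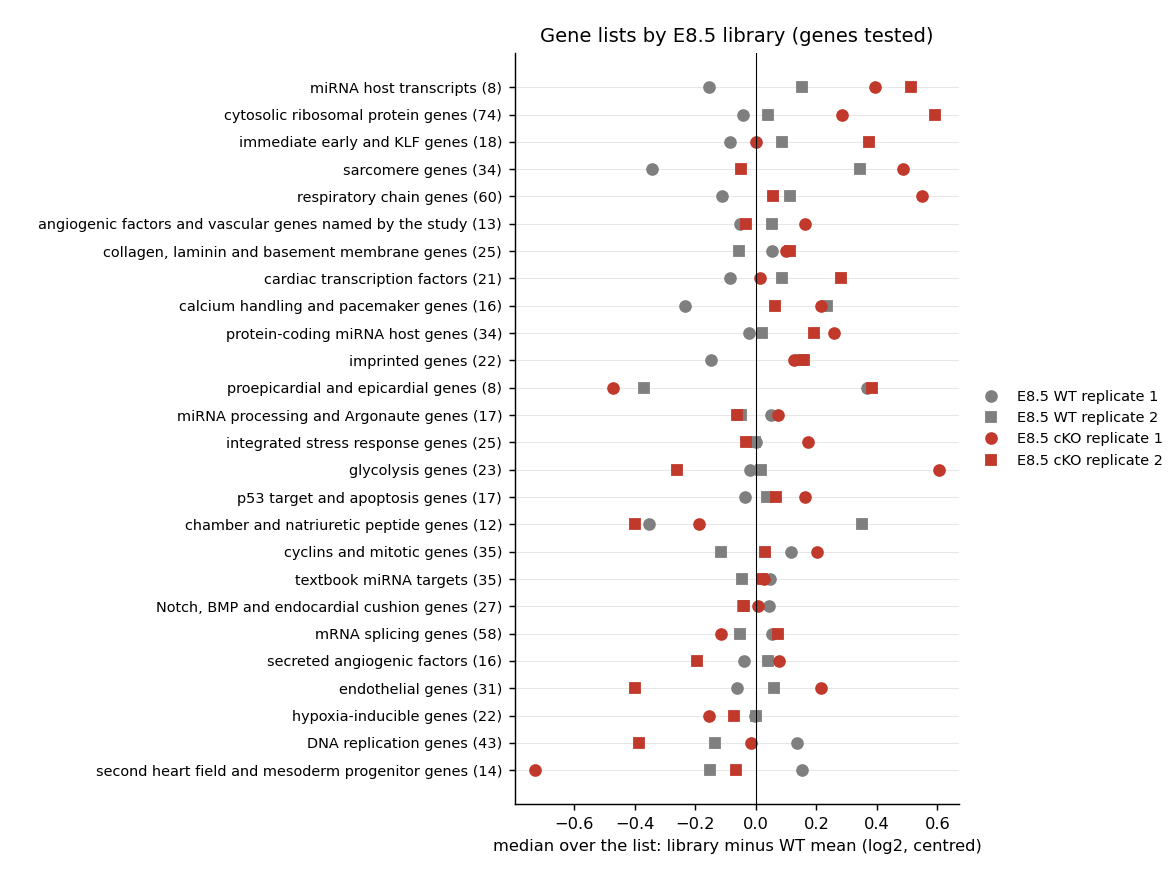
Median over each gene list (tested genes in brackets) of the log2 value in an E8.5 library minus the WT mean, after each library was centred on its own median, with grey for WT, red for cKO, circles for replicate 1 and squares for replicate 2. The ribosomal protein list lies at 0.28 and 0.59 in the cKO libraries, above both WT values, while the glycolysis list lies at 0.61 in cKO replicate 1 and at -0.26 in cKO replicate 2.

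The 2 cKO libraries were then set against each other. Between them 3811 genes (38.0%) were at least 1.5-fold apart after centring, 2274 (22.7%) higher in replicate 1 and 1537 (15.3%) higher in replicate 2. Between the WT libraries it was 1352 genes (13.5%), 574 (5.73%) and 778 (7.77%). The distance between the cKO libraries over all tested genes, without centring, was 88.5, against 51.8 between the WT libraries. Replicate 1 lay 89.0 to 101 from the E9.5 libraries, and the other 3 E8.5 libraries lay 103 to 137 from them. These distances include differences in library scale. Relative to the WT mean, 106 genes were at least 1.5-fold higher in both cKO libraries and 107 lower in both. The libraries moved apart in 104 genes, higher in replicate 1 and lower in replicate 2, and in 214 genes the other way.

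Genes higher in cKO replicate 2 included products of the decidua and of trophoblast giant cells. Of 11 tested decidual stroma markers 7 were at least 1.5-fold higher in cKO replicate 2 and 1 in cKO replicate 1. For 6 tested trophoblast markers it was 5 and 0, against 15.3% and 22.7% of all tested genes. *Prl8a2*, a prolactin relative made by decidual cells, had 449 and 1141 FPKM in WT hearts against 9.95 and 5104 FPKM in cKO hearts, the largest gap among genes averaging at least 10 FPKM. *Prl3d1*, placental lactogen of giant cells, had 20.5 and 58.7 FPKM, and 0.47 and 347 FPKM. *Cyp11a1*, the first enzyme of steroid synthesis, had 47.7 and 60.3 FPKM, and 0.43 and 233 FPKM. In all 10 genes of this group, which also held *Prl2c2*, *Prl2c3*, *Prl4a1*, *Fabp4*, *S100a6*, *Sprr2g* and *Lgals3*, both WT libraries lay between the cKO libraries. *Prl2c2* and *Prl2c3* are near-identical copies, so their values are uncertain.

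Genes higher in cKO replicate 1 included products of yolk sac endoderm and of primitive red cells. *Hbb-y*, an embryonic beta globin gene, had 473 and 2167 FPKM in WT hearts against 3033 and 168 FPKM in cKO hearts. *Apoa2*, an apolipoprotein gene of the visceral endoderm, had 61.9 and 261 FPKM, and 661 and 99.9 FPKM. *Folr1*, a folate receptor gene, had 14.3 and 44.3 FPKM, and 104 and 16.6 FPKM. Of the 10 leading genes of this group (*Hbb-y*, *Spp2*, *Apoa2*, *Cox6a2*, *Folr1*, *Cck*, *2610528J11Rik*, *Cldn6*, *Smlr1* and *S100g*), *Cox6a2* is a muscle gene, with 25.2 and 56.1 FPKM, and 93.3 and 14.7 FPKM.

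The gene lists were counted in the same way. Of 21 tested yolk sac endoderm genes 20 were at least 1.5-fold higher in cKO replicate 1 and 1 in replicate 2, and 14 were higher in WT replicate 2 than in WT replicate 1. From WT to cKO all 21 lay above the median gene, with a median of 1.07. Of them 17 were at least 1.5-fold higher and 5 were so without overlap, against 5.22% and 2.79% of all tested genes. The list's median was -0.70 and 0.70 in WT and 1.98 and 0.41 in cKO libraries. Glycolysis genes were higher in replicate 1 in 15 of 23 cases, respiratory chain genes in 21 of 60, sarcomere genes in 17 of 34 and endothelial genes in 16 of 31, against 22.7% of all tested genes. The WT libraries also differed in some of these lists, with 21 of 34 sarcomere genes higher in WT replicate 2, against 7.77% of all tested genes, and 3 of 23 glycolysis, 3 of 60 respiratory chain and 2 of 31 endothelial genes. Splicing genes were higher in replicate 2 in 17 of 58 cases, against 15.3%, and 0 were higher in replicate 1. Of 13 tested primitive erythroid markers 8 were higher in cKO replicate 1 and 1 in cKO replicate 2, while 11 were higher in WT replicate 2 and 1 in WT replicate 1. In cKO hearts 3 of 3 tested adult beta globin genes were higher in replicate 2. *Hbb-bh1*, an embryonic beta globin, had 21959.8 and 7338 FPKM in the cKO libraries, and *Hbb-b1*, an adult one, had 173 and 5907 FPKM. *Adm*, adrenomedullin, had 19.6 and 21.1 FPKM in WT hearts against 9.63 and 149 FPKM in cKO hearts. The part of yolk sac, decidual or trophoblast RNA in these differences was not tested.

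**Figure D5:**
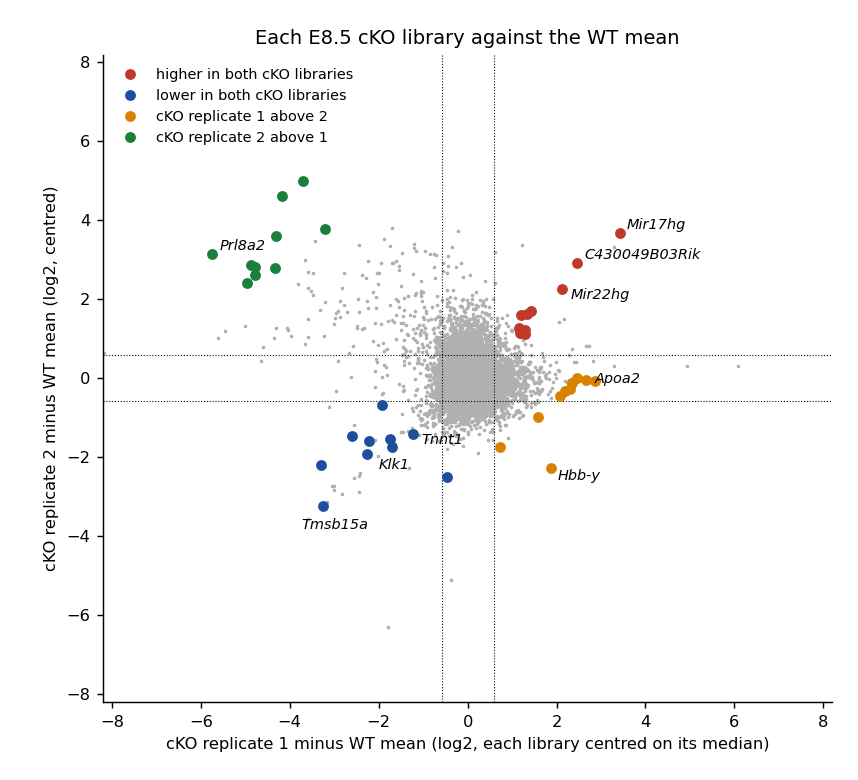
Each point is 1 of the 10018 tested genes, placed by its log2 difference from the WT mean in cKO replicate 1 (horizontal axis) and in cKO replicate 2 (vertical axis), with every library centred on its median and dotted lines at 1.5-fold. The 3 miRNA hosts lie at the upper right, near the diagonal, *Prl8a2* lies at the upper left and *Hbb-y* at the lower right, and 1 gene with a locus under 300 bp lies outside the axes.

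Whether the effect of *Dgcr8* loss differed between the stages was tested as an interaction. In limma 1 gene (0.00998%) had a more positive and 3 (0.0299%) a more negative effect at E8.5 than at E9.5 at an adjusted p under 0.05, and 0 and 0 did with equal sums over longer loci, quantile normalization, a pseudocount of 5, no filter, a replicate block or without WT replicate 1. *Ndufa4l2*, a mitochondrial protein gene induced by hypoxia, had 25.4 and 32.3 FPKM in WT hearts against 14.4 and 6.94 FPKM in cKO hearts at the early stage. Its E9.5 values were 1.28 and 0.52 FPKM in WT hearts against 35.7 and 26.4 FPKM in cKO hearts. The log2 change was thus -1.42 at E8.5 and 4.09 at E9.5, a difference of -5.51 (SE 0.54, limma interaction adjusted p 0.0436). *H2-Ab1*, a class II histocompatibility gene, had 16.2 and 14.5 FPKM in WT hearts against 11.8 and 10.7 FPKM in cKO hearts at the early stage. Its E9.5 values were 2.29 and 3.17 FPKM in WT hearts against 63.1 and 37.0 FPKM in cKO hearts. At E8.5 these 2 genes were therefore not higher in cKO hearts. Of 22 tested hypoxia-inducible genes 0 were at least 1.5-fold higher and 2 at least 1.5-fold lower without overlap (*Ndufa4l2* and *Hk2*). Of all tested genes 2.79% and 2.04% were, and the list's median was -0.15. With no fold limit, 4 of the list lay above and 8 below without overlap, against 14.9% and 12.1% of all tested genes.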

How the data were processed

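Total RNA from E8.5 hearts was extracted with TRIzol, treated with DNase and amplified with the SMARTer Ultra Low kit, per the labels (the study's methods name another protocol, Smart-seq2), and sequenced on a HiSeq2500. The authors aligned reads with BWA and deposited 1 table of FPKM values per gene for all 8 libraries. The FPKM program and its use of strand are not given in the sources used here. Per the submitters' notes the build was mm9, but 91.7% of 9515 tested genes started within 1000 bp of their RefSeq start in GRCm38 and 5.07% of 9257 in NCBIM37, so coordinates are given as GRCm38. FPKM holds no absolute depth, which is unknown here.

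Of 24930 entries, 285 symbols were listed more than once and only the one highest on average was used. The 10018 genes averaging 1 FPKM or more across 8 libraries were fitted as log2(FPKM + 1) in limma 3.58.1 (R 4.3.3), with 1 model of 4 groups, a mean-variance trend and Benjamini-Hochberg adjustment. Fold changes are on that scale, which understates low genes. A call needed an adjusted p under 0.05 and 1.5-fold. Relative changes subtract the median change of all tested genes. The distance between libraries is Euclidean over log2(FPKM + 1) values that were not centred, so it includes differences in library scale. The script was tested on simulated data.

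Named genes were the q-PCR genes of the study, called genes, the 10 leading genes in each direction (unadjusted p under 0.05, 1.5-fold relative to the median gene, no overlap, a locus of at least 300 bp, same direction under both other scalings) and the 10 that most separated the cKO libraries in each direction. List members are named as the most abundant or as past the fold limit, the latter after their values were seen. Not every counted list member is reported here by name. Members, lists and the set of host loci were chosen with earlier results of these data known. Alternatives were other pseudocounts, filters and scalings, a replicate block, a model of the E8.5 libraries alone and leaving out each library. Python 3.11.15, pandas 2.3.3 and matplotlib 3.10.9 were used for summaries and figures.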

Additional observations from a re-analysis of the deposited data

Results flagged for a closer look

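In 4 genes the effect of the knockout differed between the stages by the limma interaction test (adjusted p 0.0436 for each). With a replicate block, or without WT replicate 1 of E8.5, 0 genes passed. The E8.5 change minus the E9.5 change on the log2 scale was -5.51 for *Ndufa4l2*, whose locus overlaps *Shmt2*, and -4.16 for *H2-Ab1*. It was -2.93 for *Slc7a3*, an amino acid transporter gene, which had 1.26 and 0.90 FPKM in WT hearts against 0.38 and 0.23 FPKM in cKO hearts at the early stage. Its E9.5 values were 0.12 and 0.24 FPKM in WT hearts against 5.12 and 4.22 FPKM in cKO hearts. For the pseudogene *Rps15a-ps6* it was 4.11, with 2.26 and 0.90 FPKM, and 1.05 and 1.31 FPKM, at the early stage. Its E9.5 values were 45.0 and 34.1 FPKM in WT hearts against 0.90 and 1.19 FPKM in cKO hearts. It overlaps *Nudcd3* and shares sequence with its parent gene, so its values are uncertain.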

How the results depend on the processing

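The number of genes called higher was 1 in the reported model, 2 with a mean of at least 5 FPKM, 0 without a filter, 0 with a pseudocount of 0.1, 3 with quantile normalization and 0 to 20 without single libraries, and the number called lower was 0 to 46 without single libraries. At unadjusted p, 24 higher genes became 15 with a mean of at least 5 FPKM, 133 with median-ratio scaling, 15 with a pseudocount of 5, 93 with quantile normalization and 14 to 380 without single libraries. The 691 lower genes became 1230 with equal sums over longer loci, 403 with a mean of at least 5 FPKM, 85 with median-ratio scaling, 410 with the E8.5 libraries alone, 332 with a pseudocount of 5, 117 with quantile normalization and 222 to 2314 without single libraries. Relative to the median gene, 523 higher and 341 lower genes became 324 and 169 with a mean of at least 5 FPKM, 281 and 925 without a filter, 192 and 181 with a pseudocount of 5, and 439 to 1498 and 363 to 1020 without single libraries, and the lower genes were 554 with a pseudocount of 0.1. Without overlap, 280 and 204 became 166 and 104, 141 and 622, and 85 and 118 under the same 3 settings, 368 to 1480 and 297 to 984 without single libraries, and 312 lower genes with a pseudocount of 0.1. Fewer genes enter under the stricter filter and fewer libraries must separate when 1 is left out, and the cause of the other shifts was not tested. Genes apart between the cKO and between the WT libraries were 2234 and 712 with a mean of at least 5 FPKM and 2326 and 624 with a pseudocount of 5. Long non-coding hosts that were higher were 5 of 12 tested in the reported model and 3 of 7 tested with a mean of at least 5 FPKM. They were 4 of 12 with quantile normalization and with a pseudocount of 5.

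The 3 more negative and 1 more positive interactions became 0 and 0 with equal sums, without a filter, with a pseudocount of 5 and with quantile normalization, the positive one also 0 with a mean of at least 5 FPKM and with a pseudocount of 0.1, and they were 0 to 21 and 0 to 15 without single libraries. Equal replicate numbers did not pair the libraries (r = -0.00358 across 10018 genes between deviations of equally numbered WT and cKO libraries). With the replicate block 1 gene was called higher and 0 lower, 23 and 750 passed at unadjusted p, and 0 and 0 interactions passed.

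With the E8.5 libraries alone 1 gene was called higher, *Mir703* in place of *Mir17hg*. Uncalled q-PCR genes changed sign. With equal sums *Nkx2-5* was at -0.017, *Pdgfra* at -0.073 and *Tnni3* at -0.0060. Without single libraries *Gata4* ranged from -0.055 to 0.50, *Nkx2-5* from -0.96 to 1.11, *Pdgfra* from -0.48 to 0.50 and *Tnni3* from -0.94 to 1.12. Of the list medians, 29 had the other sign under at least 1 setting. Since FPKM holds no counts, depth limits could not be set.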
